A study of Mus musculus with 22 samples.

Results

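The comparison described here set the peritoneal cavity (PC) against the spleen of mice carrying the same NFKBIE-wt leukemia. Its members were the 4 PC and 4 spleen RNA-sequencing libraries labelled mock, 8 of the 22 libraries in the series, chosen by their labels and not by any measured value. The cells were TCL1-355 TKO, a single murine leukemia line derived from an Eμ-TCL1 transgenic mouse, in which the TCL1 transgene is driven in B cells. Its B-cell receptor is autoreactive, with phosphatidylcholine as the antigen, and it carries biallelic lesions of the cell-cycle inhibitor genes CDKN2A and CDKN2B, so its proliferation is that of a line without these brakes. NFKBIE-wt cells had been through the CRISPR/Cas9 procedure without a targeting RNA, whereas NFKBIE-ko cells received a ribonucleoprotein against NFKBIE. Both were grown once for 21 days, in separate C57BL/6 mice. They were then injected intraperitoneally into young adult, immunocompetent C57BL/6 recipients (5 mice per group). PC and spleen cells were taken from the recipients 10 days later. The PC was therefore also the site of injection. The cells were not purified, so each library held RNA of leukemic and host cells together, and the labels give blood as the tissue of every sample. The NFKBIE-wt in vitro group comprised 3 cultures of the same cells grown away from the mouse. The labels number the replicates but do not tie a PC library to a spleen library of the same mouse.

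The peritoneal cavity holds a resident macrophage population that depends on the transcription factor Gata6 and on retinoic acid, together with B-1 cells, the normal counterparts of many phosphatidylcholine-binding murine leukemias. The spleen filters blood. Its red pulp macrophages take up aged red cells and recycle their iron, its marginal zone holds other macrophages, and in the adult mouse it still makes red cells. Chronic lymphocytic leukemia cells are known to divide mainly in lymphoid tissue, where stroma, T cells and antigen are at hand.

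The 8 libraries held between 24335596 and 25658779 estimated counts. Levels below are CPM, counts scaled to a common library size by TMM, and differences are log2 fold changes of PC over spleen, so that positive values are higher in the PC. A library of the spleen group stood apart. Across 9697 genes, NFKBIE-wt spleen 4 correlated with the mean of in vitro cultures 1 and 2 at r = 0.985 and with the mean of spleens 1 to 3 at r = 0.901. The library labelled NFKBIE-wt in vitro 3 did the reverse, with r = 0.983 against spleens 1 to 3 and r = 0.893 against cultures 1 and 2. The 4 PC libraries correlated with each other's mean at 0.983 to 0.991. These are descriptions across genes, which are not independent replicates. All labels were kept as given, and the main results are reported with and without spleen 4. Whether replicates came from separate mice is not stated for each library, so p-values measure the spread between these samples.

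Of 12370 genes tested, 980 (7.92%) were higher in the PC and 397 (3.21%) were higher in the spleen by more than 2-fold at an adjusted p below 0.05 (edgeR quasi-likelihood test with Benjamini-Hochberg adjustment). Without spleen 4, 12655 genes were tested, of which 1265 (10.0%) were higher in the PC and 558 (4.41%) in the spleen. Every count of called list members below is to be read beside these shares. Both fits called 931 of the PC genes and 338 of the spleen genes, which are 95% and 85.1% of the calls with all 8 libraries, and no gene was called in opposite directions. The median difference over all genes was -0.014, near 0. The groups did not overlap for 957 of the 980 PC genes and 350 of the 397 spleen genes. These genes were called from the same libraries, so this adds no support to the calls. The share over all genes tested was not counted. Across the 12367 genes in both fits, the differences with and without spleen 4 correlated at r = 0.965, over fits that share 7 libraries.

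**Figure D1:**
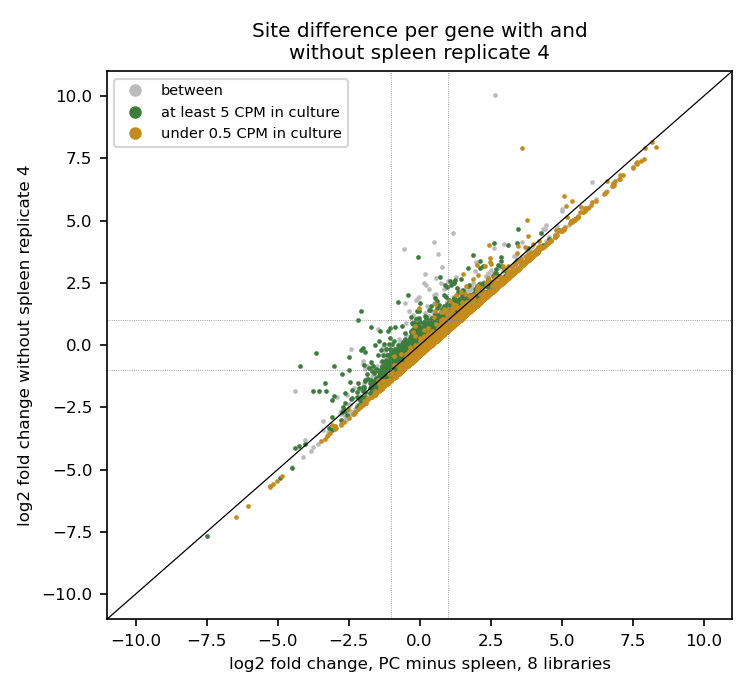
Log2 fold change of PC over spleen for each gene with all 8 libraries (x axis) and without spleen 4 (y axis), with 1 point per gene coloured by its level in culture and the diagonal as a black line. Most genes lie near the diagonal (r = 0.965 across 12367 genes), and those well above it include genes with a high level in spleen 4.

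The cultures allow a coarse division of these genes by whether the leukemic cells had the transcript when grown alone. A gene was taken as detected in culture at a median of at least 5 CPM over the 3 NFKBIE-wt cultures and as low in culture under 0.5 CPM. Of the 980 PC genes, 260 were detected in culture, 382 were low and 338 lay between. Of the 397 spleen genes, 299 were detected, 12 were low and 86 lay between. Among all genes tested, 9417 were detected and 1008 were low. Without spleen 4, the low class held 513 PC genes and 131 spleen genes. With all 8 libraries, most PC-high genes were thus under 5 CPM in the cultured line. Most spleen-high genes were at or above it, but so were 9417 of all 12370 genes tested. Without spleen 4, 327 of the 1265 PC genes and 291 of the 558 spleen genes were detected in culture. A gene that is low in culture may still be switched on in leukemic cells in the mouse. In bulk RNA, fewer cells of a type and less RNA per cell cannot be told apart.

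Macrophage genes were among the genes with large PC differences. Of 20 tested markers of peritoneal macrophages, 17 were higher in the PC and 1 was higher in the spleen, with a median log2 fold change of 4.66 (4.24 without spleen 4, 19 and 1 of 22). Their summed level was 948 to 3856 CPM in the PC, 139 to 169 CPM in spleens 1 to 3 and 61.4 CPM in spleen 4. Saa3, an acute-phase serum amyloid, was at 1742, 419, 1028 and 2371 CPM in PC 1 to 4 and at 9.38, 9.90, 4.28 and 0 CPM in spleens 1 to 4 (log2 fold change 7.89, SE 1.21, adjusted p = 0.00241). Prg4, which encodes the lubricant lubricin, was at 30.8, 5.76, 28.4 and 36.9 CPM in the PC and was at 0 in 3 of the spleens, with 0.448 CPM in spleen 2. In both genes PC 2 was the lowest PC library, yet it lay above every spleen.

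Arginase 1 (Arg1), which consumes arginine, was at 522, 198, 425 and 650 CPM in the PC against 16.1, 29.3, 38.7 and 4.29 CPM in the spleen (4.35, SE 0.676, adjusted p = 0.00257). The phagocytic receptor Timd4 (5.40), the complement receptor Vsig4 (6.58) and the serpin Serpinb2 (6.83) were also called. Gata6 itself was scarce, at 1.02, 0.16, 0.513 and 1.26 CPM in the PC, 0.0805 CPM in spleen 1 and 0 in the others. It passed the filter on low counts only without spleen 4, where it was higher in the PC (4.55, adjusted p = 0.0116). Its pooled ratio was 37.4 with a 95% counting interval of 10.4 to 309. With 2 counts in the whole spleen group, Gata6 passed through the PC libraries alone. Its direction was set by that filter, so its call is not added support. The member that went the other way was Slpi, a secreted protease inhibitor, at 12.1, 17.4, 16.5 and 20.1 CPM in the PC and 45.5, 59.5, 48.0 and 12.2 CPM in the spleen (-1.32, SE 0.414, adjusted p = 0.0429). Slpi was at 16 to 41.1 CPM in the cultures, and its groups overlapped through spleen 4.

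Markers shared by macrophages and monocytes followed the same pattern. Of 18 tested, 16 were higher in the PC and none in the spleen, with a median of 3.59 (3.71 without spleen 4, again 16 and 0). The summed level was 703 to 2013 CPM in the PC, 79.6 to 133 CPM in spleens 1 to 3 and 47.9 CPM in spleen 4. Itgam, which encodes CD11b, was at 176, 76.9, 173 and 167 CPM in the PC and 8.93, 9.33, 5.05 and 1.8 CPM in the spleen (4.57, SE 0.525, adjusted p = 0.000771). The complement subunits C1qa, C1qb and C1qc differed by 5.10, 5.49 and 5.37, and the lysosomal protein Cd68 by 3.82. Ly6c2, a marker of inflammatory monocytes, was at 14.7 to 22.9 CPM in the PC and 4.72 to 17.8 CPM in the spleen, and did not pass (0.87, adjusted p = 0.146). The lectin Clec4n did not pass either (-0.06, adjusted p = 0.970).

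The list of red pulp and marginal zone macrophage markers divided. Of 12 tested, 7 were higher in the PC (Hmox1, Cd163, Siglec1, Marco, Slc11a1, Nr1h3 and Trf), and none in the spleen. The haem-degrading enzyme Hmox1 was at 170, 104, 137 and 236 CPM in the PC and at 37.8, 23.3, 31.9 and 67.5 CPM in the spleen (2.02, SE 0.358, adjusted p = 0.00417). Marco, a scavenger receptor, was at 5.92 to 54.3 CPM in the PC and 0 to 2.09 CPM in the spleen (4.80, adjusted p = 0.00695). These genes are also expressed by macrophages outside the spleen. Spic, the transcription factor of red pulp macrophages, was at 0.692 to 1.18 CPM in the PC and 0.422 to 3.01 CPM in the spleen (-0.62, adjusted p = 0.453). The iron exporter Slc40a1 was at 0.611, 1.40, 1.30 and 1.30 CPM in the PC and 2.82, 3.83, 5.59 and 0 CPM in the spleen, and was called higher in the spleen only without spleen 4 (-1.81, adjusted p = 0.00438). The adhesion molecule Vcam1 was at 19.7 to 26.6 CPM in the PC, 34.8 to 45.1 CPM in spleens 1 to 3 and 12.7 CPM in spleen 4, and was not called.

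**Figure D2:**
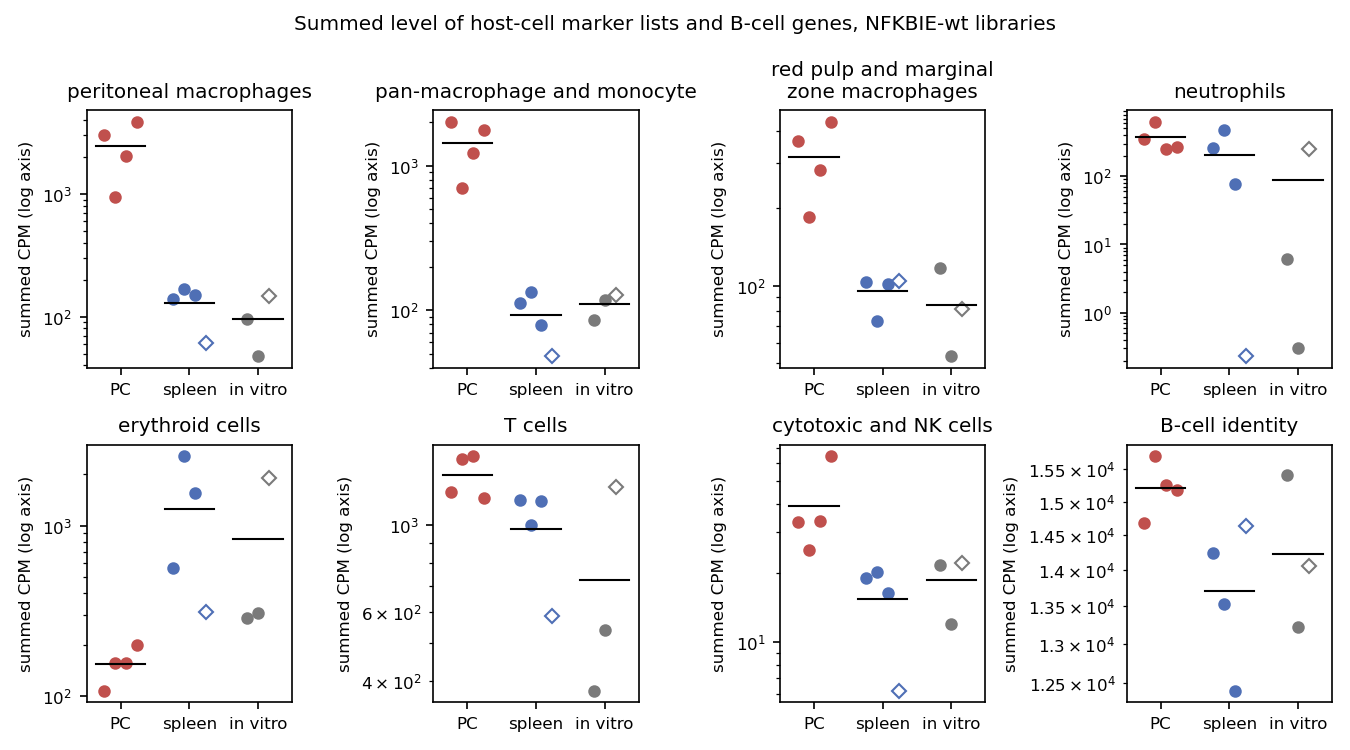
Summed CPM of each marker list on a log axis (y axis) in the NFKBIE-wt PC, spleen and in vitro libraries, with 1 point per library, group means as black lines, and open diamonds for spleen 4 and in vitro 3. The 4 PC points lie above all spleen points for the 3 macrophage lists, and the erythroid sum is 108 to 200 CPM in the PC against 563 to 2546 CPM in spleens 1 to 3 and 311 CPM in spleen 4.

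Erythroid transcripts marked the spleen, in 3 of its 4 libraries. With all 8 libraries, 6 of 11 tested erythroid genes were higher in the spleen and none in the PC, with a median of -4.93. Without spleen 4, 20 of 21 were higher in the spleen, with a median of -6.46. Genes with 0 counts in the PC, such as Rhag, Gata1 and Epor, passed the filter on low counts through the spleens alone. Their direction was set by that filter, so the larger count is not added support. Alpha-globin Hba-a1 was at 1.30, 3.44, 0.948 and 20.1 CPM in the PC and at 94.0, 554, 331 and 0.0383 CPM in the spleen. Its difference was -5.25 with all libraries (adjusted p = 0.0548) and -5.67 without spleen 4 (adjusted p = 0.0113). The Rh-associated glycoprotein Rhag was at 0 in all 4 PC libraries and at 9.70, 20.5, 10.3 and 0 CPM in the spleens, a level at least 330-fold higher in the spleen group when the PC group is set at its floor of 3 counts. The same bound was at least 122-fold for Gata1, the master regulator of red cell formation, and at least 96.4-fold for the erythropoietin receptor Epor. These floors, and the counting intervals given for other genes, cover counting error only. The transferrin receptor Tfrc, which dividing cells of other kinds also use, was lower in the PC by less than 2-fold (-0.82, adjusted p = 0.0147).

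The few T-cell genes that were called were higher in the spleen, but the summed level of the list was not. It was 1172 to 1497 CPM in the PC, 1001 to 1161 CPM in spleens 1 to 3 and 587 CPM in spleen 4. Of 17 tested, none was higher in the PC and 3 were higher in the spleen (Cd3g, Cd6 and Ubash3a), beside 3.21% of all genes, with a median of -0.34 (-0.59 without spleen 4, where Trac and Cd28 joined them). Cd3e was at 0.240 to 1.26 CPM in the PC and 0.115 to 2.05 CPM in the spleen and was not called (-0.70, adjusted p = 0.517). Trac, the T-cell receptor alpha constant region, was at 13.3, 12.6, 12.0 and 15.9 CPM in the PC and at 38.3, 36, 25.6 and 7.17 CPM in the spleen. Ubash3a, a negative regulator of T-cell receptor signaling, was at 0.570 to 0.880 CPM in the PC, 7.01 to 8.81 CPM in spleens 1 to 3 and 0.805 CPM in spleen 4 (-3.01, SE 0.635, adjusted p = 0.00883). Several genes of this list were abundant in the cultured line, Lck and Tcf7 among them, and Cd3g was at 9.26 to 34.1 CPM there. Of 12 cytotoxic and NK-cell genes, Cst7 (2.63) and Klrb1c (1.24) were higher in the PC, beside 7.92% of all genes. Without spleen 4 the granzyme gene Gzma joined them (1.46).

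Neutrophil genes were present at both sites and differed less than they varied. Of 14 tested, only Prtn3 was called, higher in the PC (3.34, adjusted p = 0.0153), beside 7.92% of all genes. S100a8 was at 80.4, 129, 46.4 and 59.1 CPM in the PC and 43.4, 115, 14.8 and 0 CPM in the spleen (0.87, adjusted p = 0.604). The whole list summed to 0.230 CPM in spleen 4, against 77.8 to 473 CPM in spleens 1 to 3. Without spleen 4, the chemokine receptor Cxcr2, the growth factor receptor Csf3r and the decoy receptor Il1r2 were called higher in the PC as well (1.90, 2.15 and 1.76). Of 4 mast cell and eosinophil genes none was called with all libraries, and the eosinophil lectin Siglecf, which some macrophages share, was higher in the PC without spleen 4 (2.49, adjusted p = 0.00677). Of 7 dendritic cell genes only Clec10a, a lectin that macrophages also express, was higher in the PC (7.53), beside 7.92% of all genes.

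Matrix and surface genes differed between the sites in small numbers. Of 7 endothelial and stromal genes, the fibroblast genes Col1a2 (3.88), Col3a1 (3.46) and Dcn (3.84) were higher in the PC, at 1.24 to 11.5 CPM, and the endothelial cadherin Cdh5 was higher in the spleen (-2.76, SE 0.341, adjusted p = 0.000884). Without spleen 4, 10 of these genes were tested, Col6a1 (4.13), Pdgfra (3.48) and Sparc (1.47) were also higher in the PC, and Stab2, a scavenger receptor of sinusoidal endothelium, was also higher in the spleen (-5.58). Stab2 had 2 counts in the whole PC group and passed the filter on low counts through the spleens alone, which set its direction. Cdh5 was at 2.33 to 2.93 CPM in the cultures and 0.217 to 0.407 CPM in the PC. The keratins Krt8 (3.31) and Krt18 (4.44), which mesothelium and other epithelia express, were higher in the PC, whereas the mesothelial marker Msln was at 0.489 CPM in PC 1 and 0 in the other PC libraries. Of 3 platelet genes, Pf4, also found in macrophages, was higher in the PC (5.10), and without spleen 4 so was the collagen receptor gene Gp6 (3.94). The retinoic acid receptor gene Rarb was at 2.28 to 4.26 CPM in the PC and 0 to 0.201 CPM in the spleen (5.49, adjusted p = 0.00162), the only call among 4 tested genes of the retinoic acid list with all libraries. Without spleen 4, of 5 tested, the receptor gene Rara (1.13) and the transglutaminase gene Tgm2 (1.99) were higher in the PC as well, and the retinaldehyde dehydrogenase gene Aldh1a1 was higher in the spleen (-5.87, adjusted p = 0.000514).

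Several chemokine genes were higher in the PC. Of 22 tested, 9 were higher in the PC (Ccl2, Ccl4, Ccl6, Ccl7, Ccl8, Ccl9, Ccl12, Cxcl1 and Il1rn) and 1 in the spleen (Il10), and without spleen 4 Ccl3, Ccl22 and Cxcl16 were also higher in the PC. The summed level of the list was 499 to 1107 CPM in the PC, 147 to 186 CPM in spleens 1 to 3 and 272 CPM in spleen 4, unlike the macrophage sums, which were lowest in spleen 4 among the spleens for the peritoneal and shared markers. Ccl6 was at 676, 220, 362 and 644 CPM in the PC and 12.7, 14.1, 4.17 and 0 CPM in the spleen (5.95, SE 1.10, adjusted p = 0.00526). Ccl9 was at 260, 79.2, 155 and 270 CPM in the PC and 0.0383 to 3.83 CPM in the spleen (6.60, adjusted p = 0.00161). For these 2 genes, as for the macrophage markers, PC 2 was the lowest PC library, and the part of macrophage content in these differences was not tested. Ccl8 and Ccl12, ligands that attract monocytes, had 2 counts and 1 count in the whole spleen group, with ratios of 73.8 (20.4 to 609) and 74.6 (13.4 to 2945). Both passed the filter on low counts through the PC libraries alone, which set their direction. Il10, an anti-inflammatory cytokine that B-1 cells make in quantity, was at 15.1, 19.7, 14.5 and 23.4 CPM in the PC and 45.0, 35.8, 46.9 and 34.2 CPM in the spleen (-1.15, SE 0.183, adjusted p = 0.00258). The cultures had 22.5 to 40.5 CPM of it. Ccl22, which draws T cells through Ccr4, was at 19.4 to 28.3 CPM in the PC, 1.96 to 8.77 CPM in spleens 1 to 3 and 107 CPM in spleen 4. It was called higher in the PC without that library (2.01, adjusted p = 0.00517) and was not called with it (-0.42, adjusted p = 0.791).

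Among all genes low in culture, the largest PC differences that passed both fits, without overlap and at 5 CPM or more, were those of Cbr2, Saa3, Prg4, Lyve1, Clec10a and C3ar1. Cbr2, a carbonyl reductase (chr11:120620312-120622940, minus strand, GRCm39), was at 23.4, 6.36, 18.8 and 21.4 CPM in the PC and at most 0.116 CPM in the spleen (8.34, SE 0.659, adjusted p = 0.000243). The hyaluronan receptor gene Lyve1 had 3 counts in all spleens together, a ratio of 233 (79.7 to 1130). Lyve1, Cbr2, Prg4 and Clec10a passed the filter on low counts through the PC libraries alone, which set their direction. C3ar1, the receptor for complement C3a, was at 15.4 to 50.1 CPM in the PC and 0.0383 to 0.443 CPM in the spleen (7.52). No gene low in culture met the same conditions in the spleen direction. These conditions include spleen 4, which resembles cultures 1 and 2, so a gene low in culture could hardly meet them. Without spleen 4, 131 genes low in culture were called higher in the spleen. Among genes detected in culture, the corresponding PC genes were Fgl2, Itgam, Arg1, Apoe, Lyz2 and Cd68. Fgl2, a fibrinogen-like protein of macrophages and T cells, was at 172, 111, 172 and 186 CPM in the PC and 8.89, 6.27, 4.17 and 2.11 CPM in the spleen (4.91, SE 0.423, adjusted p = 0.000299). The lipid carrier Apoe was at 1248, 667, 810 and 1163 CPM in the PC against 32.7, 58.5, 38.3 and 73.5 CPM (4.27, SE 0.332, adjusted p = 0.000233). All 6 are known to be made by macrophages. Their culture levels differed, from 0.190 to 25.2 CPM for Lyz2 to 29.1 to 76.7 CPM for Apoe.

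A second selection, made after these values were seen, took genes at 20 CPM or more in the cultures, which the leukemic line itself expresses at some level. Its 8 PC genes were Apoe, Adgre1, Slc16a3, Actn1, Adgrd1, Cyp4f18, Vat1 and Acp5. The tightest was Adgrd1, an adhesion G-protein-coupled receptor (chr5:129173781-129281663, plus strand, GRCm39), at 419, 399, 503.7 and 386 CPM in the PC, 55.7, 50.9, 53.1 and 54.4 CPM in the spleen and 73.6, 78.7 and 87.7 CPM in culture (3.0, SE 0.111, adjusted p = 7.93e-06). Every PC library lay far above every spleen and culture. Actn1, an actin cross-linker, was at 107, 94.4, 147 and 89.6 CPM in the PC and 13.3, 10.9, 18.6 and 9.62 CPM in the spleen (3.07, SE 0.245, adjusted p = 0.000243). Cyp4f18, a fatty acid hydroxylase, was at 154 to 174 CPM in the PC and 15.2 to 34.7 CPM in the spleen (2.76, SE 0.228, adjusted p = 0.000244). In these 3 genes PC 2, the library lowest in macrophage markers, was not set apart. Acp5, the tartrate-resistant phosphatase, was at 709, 527, 553 and 534 CPM in the PC and 111, 157, 86.5 and 17.4 CPM in the spleen (2.65, adjusted p = 0.00859). For Adgre1, which encodes the macrophage marker F4/80, spleen 4 had 12.7 CPM and spleens 1 to 3 had 1.79 to 2.33 CPM, so that its difference was 3.46 with spleen 4 and 4.67 without it.

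In the spleen direction, the 8 genes of this selection were Dusp4, Hivep3, Fermt2, A930003A15Rik, Crmp1, Camk2b, Mef2b and Etl4. Dusp4, a phosphatase that inactivates MAP kinases (chr8:35274442-35287048, plus strand, GRCm39), was at 0.774, 0.800, 1.26 and 1.48 CPM in the PC and 12.8, 15, 22.5 and 21.1 CPM in the spleen (-4.04, SE 0.295, adjusted p = 0.000233). The cultures had 10.9 to 25.2 CPM, so the PC libraries were the ones that stood apart. Camk2b, a subunit of a calcium-dependent kinase, was at 56.2, 46.8, 46.6 and 36 CPM in the PC and 306, 265, 402 and 115 CPM in the spleen (-2.55, SE 0.343, adjusted p = 0.00133). The uncharacterized A930003A15Rik was at 3.63 to 6.30 CPM in the PC and 26.6 to 35.3 CPM in the spleen (-2.67, SE 0.181, adjusted p = 0.000233). The first selection also held St6galnac2, Iglon5, Pacsin1 and Nqo1. The adhesion protein Iglon5 was at 0.237 to 0.855 CPM in the PC and 7.58 to 16.3 CPM in the spleen (-4.25, SE 0.410, adjusted p = 0.000381). Pacsin1, Nqo1 and Hivep3 rested in part on spleen 4, which had 19.9, 19.9 and 56.8 CPM of them against at most 2.43, 2.44 and 12.2 CPM in spleens 1 to 3. Their differences were -3.74, -3.34 and -3.29 with spleen 4 and -1.85, -1.53 and -1.86 without it, and all 6 of these fits called the gene.

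**Figure D3:**
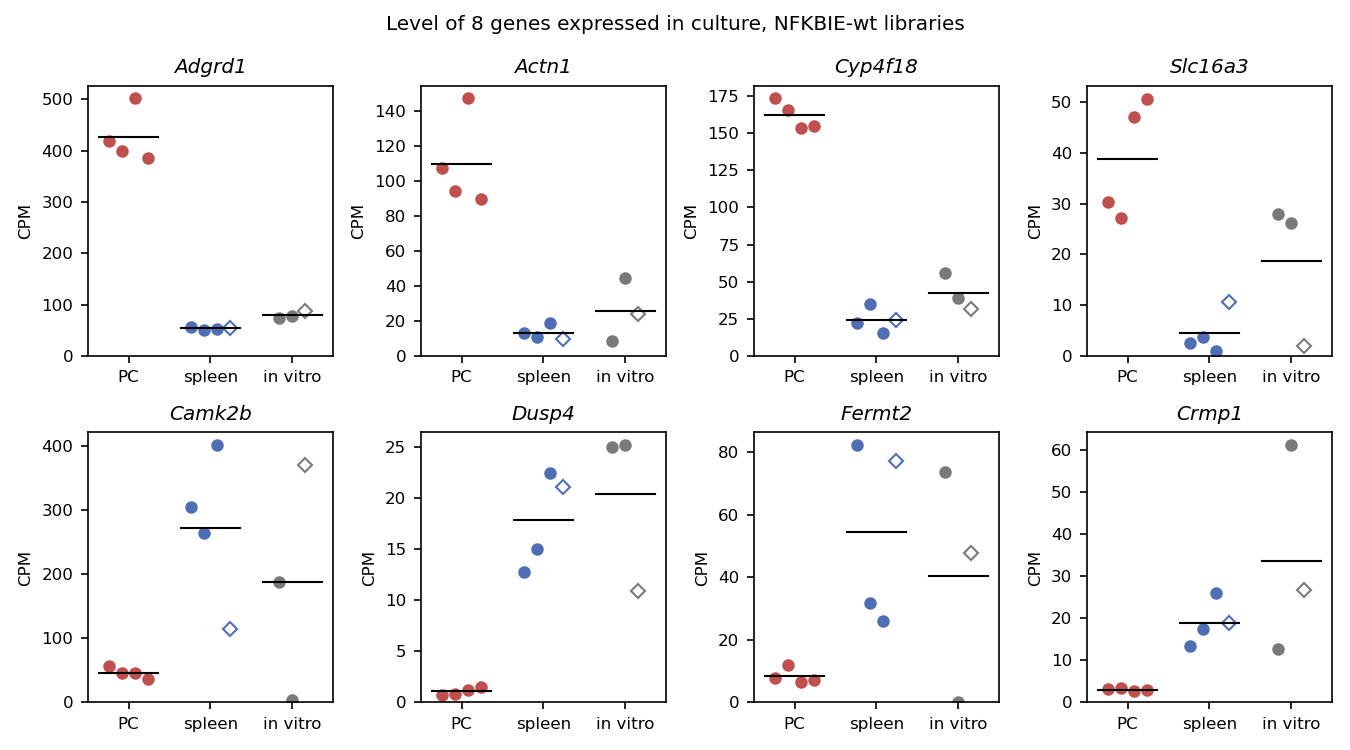
CPM on linear axes (y axis) of 8 genes chosen at 20 CPM or more in culture, with 1 point per NFKBIE-wt PC, spleen and in vitro library, group means as black lines, and open diamonds for spleen 4 and in vitro 3. Adgrd1 separates the PC from both other groups, and Dusp4 lies at 0.774 to 1.48 CPM in the PC and at 10.9 CPM or more elsewhere.

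Proliferation genes were lower in the PC. Of 20 mitotic and cell-cycle genes, all detected in culture, 16 were higher in the spleen by more than 2-fold and none in the PC (13 and 0 without spleen 4), and all 20 had an adjusted p below 0.05 in that direction. The median was -1.20 (-1.08 without spleen 4), beside -0.014 over all genes tested. Birc5, which encodes survivin, was at 45.8, 42.9, 49.1 and 46.9 CPM in the PC and 113, 109, 95 and 112 CPM in the spleen (-1.21, SE 0.091, adjusted p = 0.000233). Mki67, the gene of the Ki-67 antigen, varied more, at 199, 261, 376 and 189 CPM in the PC and 552, 337, 959 and 914 CPM in the spleen (-1.42, SE 0.350, adjusted p = 0.0169), with PC 3 above spleen 2. Plk1 (-1.40), Bub1 (-1.40) and the kinetochore motor Cenpe (-1.55) were also called, and their PC and spleen libraries did not overlap.

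Genes of DNA replication gave the tightest groups. Of 20 tested, 9 were higher in the spleen and none in the PC, with and without spleen 4, and all 20 were lower in the PC at an adjusted p below 0.05. The median was -0.97 (-0.95 without spleen 4). Cdc6, which loads the replicative helicase, was at 25.0, 27.7, 22.3 and 24 CPM in the PC and 72.1, 57.7, 67.6 and 70.5 CPM in the spleen (-1.43, SE 0.107, adjusted p = 0.000233). The helicase subunit Mcm5 was at 118, 123, 125 and 109 CPM in the PC and 313, 273, 277 and 298 CPM in the spleen (-1.28, SE 0.0881, adjusted p = 0.000233). In the cultures Cdc6 was at 63.2 to 67.8 CPM and Mcm5 at 243 to 301 CPM, near the spleen and not the PC level. Spleen 4 lay with the other spleens here. The summed level of the 20 replication genes was 1917 to 2092 CPM in the PC and 3691 to 4236 CPM in spleens 1 to 3. The B-cell identity genes, by contrast, summed to 14678 to 15702 CPM in the PC and 12400 to 14252 CPM in spleens 1 to 3.

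Some promoters of these genes carry short sequences known from cell-cycle control. E2F factors bind a short GC-rich element and act in S phase, and the CHR element TTTGAA serves genes of mitosis. The RefSeq promoters below (GRCm38.p6, 250 bases before to 50 after the start) are those of the called members with the largest differences that hold the element on either strand, shown because the lists moved together. Capitals mark the E2F letters TTTGGCGC, TTTCGCGC or TTTCCCGC or their complements in Cdc6 (chr11:98907901-98908200, plus strand) and Mcm5 (chr8:75109259-75109558, plus strand), where 2 matches overlap, and TTTGAA in Mki67 (chr7:135716330-135716629, minus strand).
Cdc6: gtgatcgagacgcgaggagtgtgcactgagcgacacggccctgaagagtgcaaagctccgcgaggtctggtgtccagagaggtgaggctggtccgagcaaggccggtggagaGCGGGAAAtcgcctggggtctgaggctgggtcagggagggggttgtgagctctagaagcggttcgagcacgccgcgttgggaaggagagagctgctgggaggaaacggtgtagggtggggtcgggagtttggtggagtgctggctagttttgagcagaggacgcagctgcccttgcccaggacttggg
Mcm5: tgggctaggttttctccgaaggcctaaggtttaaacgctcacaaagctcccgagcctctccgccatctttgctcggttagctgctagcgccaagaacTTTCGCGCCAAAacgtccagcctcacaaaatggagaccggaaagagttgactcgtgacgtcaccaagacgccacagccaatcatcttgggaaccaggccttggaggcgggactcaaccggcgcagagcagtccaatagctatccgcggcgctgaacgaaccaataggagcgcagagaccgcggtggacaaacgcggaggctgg
Mki67: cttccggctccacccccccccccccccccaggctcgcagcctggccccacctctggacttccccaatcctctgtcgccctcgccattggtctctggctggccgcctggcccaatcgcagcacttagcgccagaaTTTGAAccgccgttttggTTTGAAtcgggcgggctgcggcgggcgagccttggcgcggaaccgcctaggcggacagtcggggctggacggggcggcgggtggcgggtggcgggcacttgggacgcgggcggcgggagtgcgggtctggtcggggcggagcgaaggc

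The E2F letters were in 6 of 17 promoters of the replication list (35.3%), in 26 of 236 promoters of spleen-high genes detected in culture (11%), in 2 of 197 of PC-high genes detected in culture (1.02%), in 3.82% of the 9168 tested genes with a promoter and in 1.91% of all 27025 promoters. TTTGAA was in 11 of 16 promoters of the cell-cycle list (68.8%), in 78 of 236 of the spleen-high genes (33.1%), in 26 of 197 of the PC-high genes (13.2%), in 12.4% of the tested genes with a promoter and in 18.1% of all promoters. A match of letters is a description and not a binding site.

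Interferon-stimulated genes were higher in the PC. Of 21 tested, 14 were called higher in the PC and none in the spleen, with a median of 1.90 (14 and 0, with 1.92, without spleen 4). The antiviral sensor Oas1a was at 8.31, 3.0, 6.52 and 7.91 CPM in the PC and 0.523, 1.06, 0.231 and 0 CPM in the spleen (3.83, SE 0.822, adjusted p = 0.00954). Irf7, the regulator that amplifies interferon production, was at 64.5, 25.3, 34.6 and 54.3 CPM in the PC and 6.60, 14.5, 8.75 and 3.26 CPM in the spleen (2.44, SE 0.461, adjusted p = 0.00566). Rtp4 (4.79), Zbp1 (2.87) and Ifit1 (2.66) were called as well. Isg15 was at 5.33 to 10.8 CPM in the PC, 3.26 to 4.36 CPM in spleens 1 to 3 and 10.4 CPM in spleen 4 and was not called (0.43, adjusted p = 0.446). Ifit2 was lower in the PC by less than 2-fold (-0.69, adjusted p = 0.0454). The list summed to 339 to 474 CPM in the PC, 170 to 202 CPM in the spleen and 503, 151 and 180 CPM in cultures 1 to 3. By sum, culture 1 thus lay above every PC library. In mean log2(CPM + 0.5) of the tested members, culture 1 was at 2.60, against 3.20 to 3.91 in the PC and 1.71 to 2.17 in the spleen. PC 2 was the lowest PC library in the mean of this list, as it was for the macrophage markers, and the part of macrophage content in these differences was not tested.

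The interferon-response element GAAANNGAAA marks many of these genes. The promoters of Oas1a (chr5:120907476-120907775, minus strand) and Ifit1 (chr19:34640639-34640938, plus strand; both GRCm38.p6, from RefSeq) are shown as the called members with the largest differences that hold it, with the matched letters or their complement in capitals.
Oas1a: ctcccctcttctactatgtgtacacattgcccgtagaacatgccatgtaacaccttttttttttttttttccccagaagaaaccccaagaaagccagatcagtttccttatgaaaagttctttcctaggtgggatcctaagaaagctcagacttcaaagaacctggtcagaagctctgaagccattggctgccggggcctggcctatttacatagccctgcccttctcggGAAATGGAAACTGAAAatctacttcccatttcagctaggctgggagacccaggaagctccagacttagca
Ifit1: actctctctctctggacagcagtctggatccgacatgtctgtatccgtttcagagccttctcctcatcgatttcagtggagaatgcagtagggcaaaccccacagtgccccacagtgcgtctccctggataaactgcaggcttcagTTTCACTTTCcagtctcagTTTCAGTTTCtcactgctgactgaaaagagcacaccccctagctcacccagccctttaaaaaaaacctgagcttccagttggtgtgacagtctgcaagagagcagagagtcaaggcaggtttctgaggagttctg
In Oas1a 2 matches overlap, and in Ifit1 the 2 matches are apart. The element was in 8 of 14 promoters of the list (57.1%), in 16 of 197 promoters of PC-high genes detected in culture (8.12%), in 8 of 236 of spleen-high genes detected in culture (3.39%), in 3.31% of the tested genes with a promoter and in 3.49% of all promoters.

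Antigen presentation by MHC class I moved in the same direction by smaller amounts, in genes the leukemic line expresses strongly. Of 12 tested, 3 were higher in the PC by more than 2-fold (Tap1, H2-T23 and the class I transactivator Nlrc5), beside 7.92% of all genes. With no limit on fold, 10 were higher in the PC at an adjusted p below 0.05. The peptide transporter gene Tap1 was at 324, 267, 332 and 304 CPM in the PC and 123, 135, 127 and 134 CPM in the spleen (1.25, SE 0.0965, adjusted p = 0.000233). H2-K1 was at 2105 to 2418 CPM in the PC and 1179 to 1463 CPM in the spleen (0.78, SE 0.112, adjusted p = 0.00176), without overlap. The list summed to 8462 to 9844 CPM in the PC and 5065 to 6180 CPM in spleens 1 to 3. MHC class II genes gave a single call. Of 10 tested, only the transactivator Ciita was called, higher in the spleen (-1.79, adjusted p = 0.0346), with 84.5 CPM in spleen 4 and 16 to 24.4 CPM in spleens 1 to 3, and without spleen 4 none was called.

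**Figure D4:**
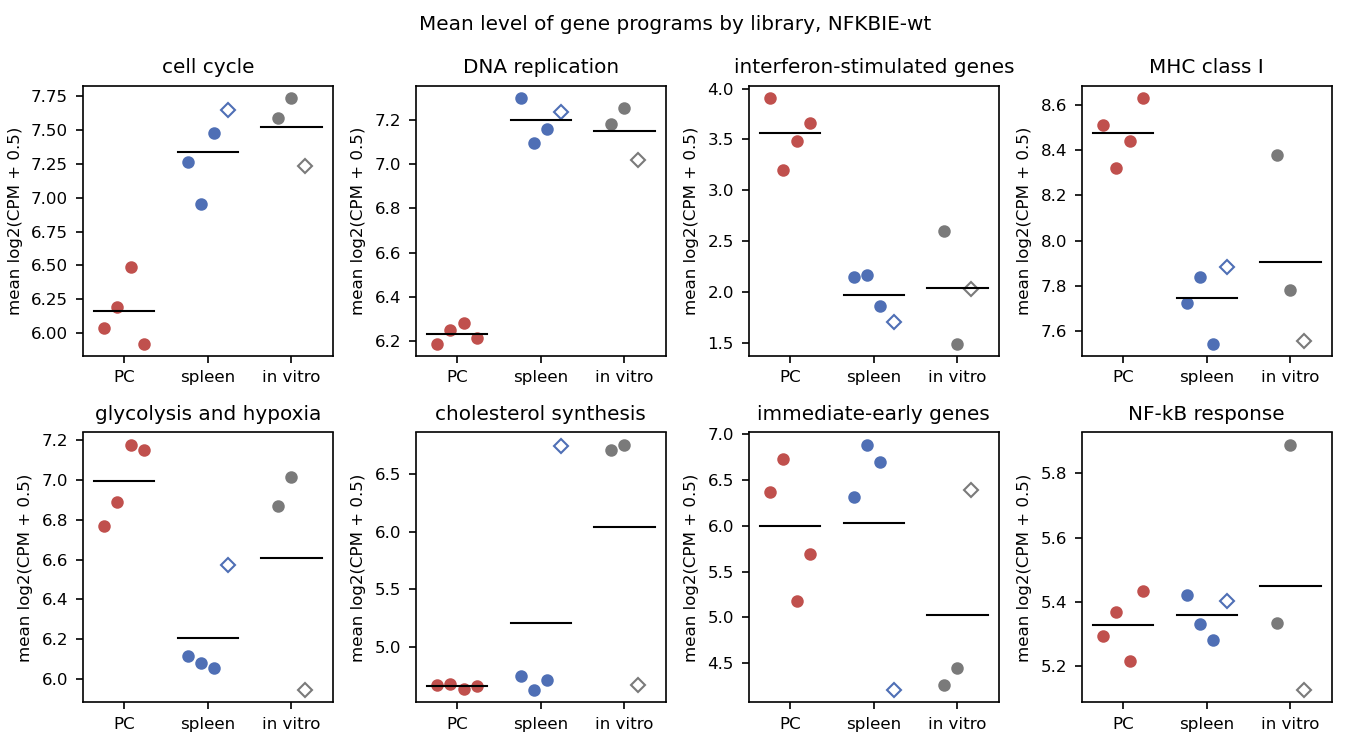
Mean log2(CPM + 0.5) of the tested members of each gene program (y axis) in the NFKBIE-wt PC, spleen and in vitro libraries, with 1 point per library, group means as black lines, and open diamonds for spleen 4 and in vitro 3. The 4 PC points lie below all spleen points for cell cycle and DNA replication and above them for interferon-stimulated and MHC class I genes, and cholesterol synthesis is at 6.74 in spleen 4 against 4.62 to 4.75 in spleens 1 to 3.

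Several genes of the hypoxia response were higher in the PC. Of 29 tested genes of glycolysis and hypoxia, 16 were higher in the PC at an adjusted p below 0.05, and 7 of them by more than 2-fold (Slc16a3, Vegfa, Bnip3, Ddit4, Ankrd37, Ndrg1 and P4ha1), and none was higher in the spleen. The median was 0.65, and without spleen 4 Aldoc and Egln3 were called as well. The lactate exporter Slc16a3 was at 30.4, 27.3, 47.0 and 50.7 CPM in the PC and 2.45, 3.75, 1.04 and 10.7 CPM in the spleen (3.12, SE 0.624, adjusted p = 0.00746, and 4.01, adjusted p = 0.000234, without spleen 4). The angiogenic factor Vegfa was at 13.3, 22.7, 25.4 and 26.0 CPM in the PC and 3.90, 3.05, 2.43 and 7.28 CPM in the spleen (2.40, SE 0.360, adjusted p = 0.00207). For both, spleen 4 was the highest spleen. Ddit4, an inhibitor of mTOR signaling, was at 596 to 738 CPM in the PC, 185 to 286 CPM in spleens 1 to 3 and 45.3 CPM in spleen 4 (1.91, adjusted p = 0.0147). Gapdh (-0.10, adjusted p = 0.586), Pkm (0.11, adjusted p = 0.611) and Eno1 (0.13, adjusted p = 0.556) were not called, and their groups overlapped. Cultures 1 and 2 had 28 and 26.3 CPM of Slc16a3, near the PC level.

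The hypoxia factors bind the core letters ACGTG. The RefSeq promoter of Slc16a3 (GRCm38.p6, chr11:120948817-120949116, plus strand) is shown as the called member with the largest difference, with its 2 matches in capitals.
Slc16a3: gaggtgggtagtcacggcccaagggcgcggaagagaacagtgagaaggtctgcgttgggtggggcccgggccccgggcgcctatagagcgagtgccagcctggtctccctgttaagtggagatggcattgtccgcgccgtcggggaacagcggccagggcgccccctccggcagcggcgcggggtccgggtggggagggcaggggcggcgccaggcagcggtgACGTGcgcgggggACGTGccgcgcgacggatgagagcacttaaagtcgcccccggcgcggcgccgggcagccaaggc
These 5 letters are common. They were in 15 of 27 promoters of the list (55.6%), in 19.7% of all promoters, in 26.0% of the 9168 tested genes with a promoter, in 41 of 197 PC-high genes detected in culture (20.8%) and in 53 of 236 spleen-high genes detected in culture (22.5%).

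Lipid genes gave a few large differences. Scd1, which desaturates stearate, was among the most abundant enzymes, at 3806, 3404, 3671 and 3168 CPM in the PC and 1231, 1386, 1433 and 853 CPM in the spleen (1.53, SE 0.174, adjusted p = 0.000667). The lipid droplet protein Plin2 (1.59, adjusted p = 0.000872) and the lipase Lpl (4.40, adjusted p = 0.000518) completed the 3 calls among 18 tested genes of lipid handling, beside 7.92% of all genes. Fasn was at 189 to 255 CPM in the PC and 180 to 354 CPM in the spleen (-0.22, adjusted p = 0.461). Cholesterol synthesis turned on spleen 4. Its 21 genes summed to 759 to 815 CPM in the PC, 741 to 800 CPM in spleens 1 to 3 and 3310 CPM in spleen 4, beside 3326, 3453 and 727 CPM in cultures 1 to 3. The median was -0.83 with spleen 4 and -0.11 without it, and the single call, Idi1 (-1.96), was lost without that library.

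The B-cell identity genes of the leukemia differed in both directions. Of 19 tested, 2 were higher in the PC (Cd37 and Zbtb32) and 3 in the spleen (Cd22, Cd5 and Fcrla), beside 7.92% and 3.21% of all genes, with a median of 0.08. Without spleen 4, Bank1 was also higher in the PC (1.09). Ighm, the heavy chain of the leukemic receptor, was at 8172 to 8494 CPM in the PC and 7541 to 7878 CPM in the spleen (0.11, adjusted p = 0.448). Cd22, an inhibitory co-receptor, was at 10.8, 15.3, 8.73 and 8.60 CPM in the PC and 35.0, 26.1, 24.9 and 79.8 CPM in the spleen (-1.92, SE 0.396, adjusted p = 0.00805). Cd5, a hallmark of B-1 cells and of this leukemia type, was at 16.3, 19.7, 14.2 and 16.9 CPM in the PC and 50.5, 47.9, 42.5 and 31.5 CPM in the spleen (-1.35, SE 0.168, adjusted p = 0.000892). Cd79b, a signaling chain of the receptor, was higher in the PC by less than 2-fold (0.94, adjusted p = 0.00987). Of 11 plasma cell genes, Irf4 (-1.30, adjusted p = 0.00209) and Sdc1 (-1.13, adjusted p = 0.0238) were higher in the spleen, beside 3.21% of all genes. Irf4 was at 78.5, 126, 136 and 140 CPM in the PC and 240, 275, 348 and 322 CPM in the spleen.

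Of 21 genes of receptors for positioning, 3 were called, all higher in the PC, beside 7.92% of all genes. Without spleen 4 the tetraspanin gene Cd9 was called too (1.04). In that fit, 8 were higher in the PC and 3 in the spleen at an adjusted p below 0.05 with no limit on fold. Cxcr5, the receptor that directs B cells into follicles, was at 186, 226, 236 and 240 CPM in the PC and 75.8, 86.0, 75.5 and 32.9 CPM in the spleen (1.72, SE 0.268, adjusted p = 0.00232). Gpr183, an oxysterol receptor with a like role, was at 5.54 to 8.17 CPM in the PC and 1.15 to 2.09 CPM in the spleen (2.16, adjusted p = 0.000737). The third was the integrin chain Itgb2 (1.26), which macrophages also carry. Cxcr4 was at 323 to 371 CPM in the PC and 248 to 463 CPM in the spleen (-0.15, adjusted p = 0.586).

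NF-kB target genes gave a single call. Of 20 tested, only Rel was called, at 43.0, 79.1, 69.3 and 56.4 CPM in the PC and 105, 142, 147 and 122 CPM in the spleen (-1.05, SE 0.191, adjusted p = 0.00457). The list's median was -0.15, and 0.04 without spleen 4. Nfkbie itself was at 67.8 to 92.6 CPM in the PC and 71.4 to 123 CPM in the spleen (-0.09, adjusted p = 0.748). Immediate-early genes, which respond within minutes to stimulation and also to cell handling, varied within the groups. Fos was at 924, 1281, 72.9 and 214 CPM in the PC and 943, 1119, 1244 and 2.22 CPM in the spleen (-0.40, adjusted p = 0.841). Ier3 was the only call among 22 with all libraries, higher in the PC (1.88, adjusted p = 0.0185). Without spleen 4, Jund (-1.11), Klf6 (-1.05) and Maff (-1.02) were called higher in the spleen as well. None of 13 heat-shock genes was called. The 13 mitochondrially encoded genes had no call and a median of 0.65, and of 22 ribosomal protein genes only Rps27 was called (1.04), a call lost without spleen 4 (0.86, adjusted p = 0.0508). In the remaining lists, the genes higher in the PC, beside 7.92% of all genes, were 3 of 14 TGF-beta response genes (Id2, Itgae and Ltbp3), 2 of 12 iron and haem genes (Hmox1 and Cd163) and 1 of 17 genes of the integrated stress response (Cebpb). Without spleen 4 the TGF-beta target Tgfbi (1.74) and the stress factor Atf5 (1.19) joined them, and the inhibitory Smad6 (-1.98), the iron exporter Slc40a1 (-1.81) and asparagine synthetase Asns (-4.56) were higher in the spleen. None of 5 metallothionein and zinc genes was called in either fit. The 1 adipocyte gene tested, Fabp4, was called higher in the PC only without spleen 4 (1.21, adjusted p = 0.0207).

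The NFKBIE-ko libraries, which the comparison above did not use, give the same contrast in another 8 samples. There the PC was higher for 1968 genes (15% of 13137 tested) and the spleen for 838 (6.38%). Of the 931 genes that were PC-high in both NFKBIE-wt fits, 909 had the same sign in NFKBIE-ko and 810 (87.0%) were called. Of the 338 spleen-high genes, 317 had the same sign and 237 (70.1%) were called. The list medians came from these different fits and were not tested against each other. The median difference was 4.99 for peritoneal macrophage genes, -1.11 for cell cycle and -1.33 for DNA replication in NFKBIE-ko, against 4.66, -1.20 and -0.97 in NFKBIE-wt, while interferon-stimulated genes had a median of 0.71 against 1.90.

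**Figure D5:**
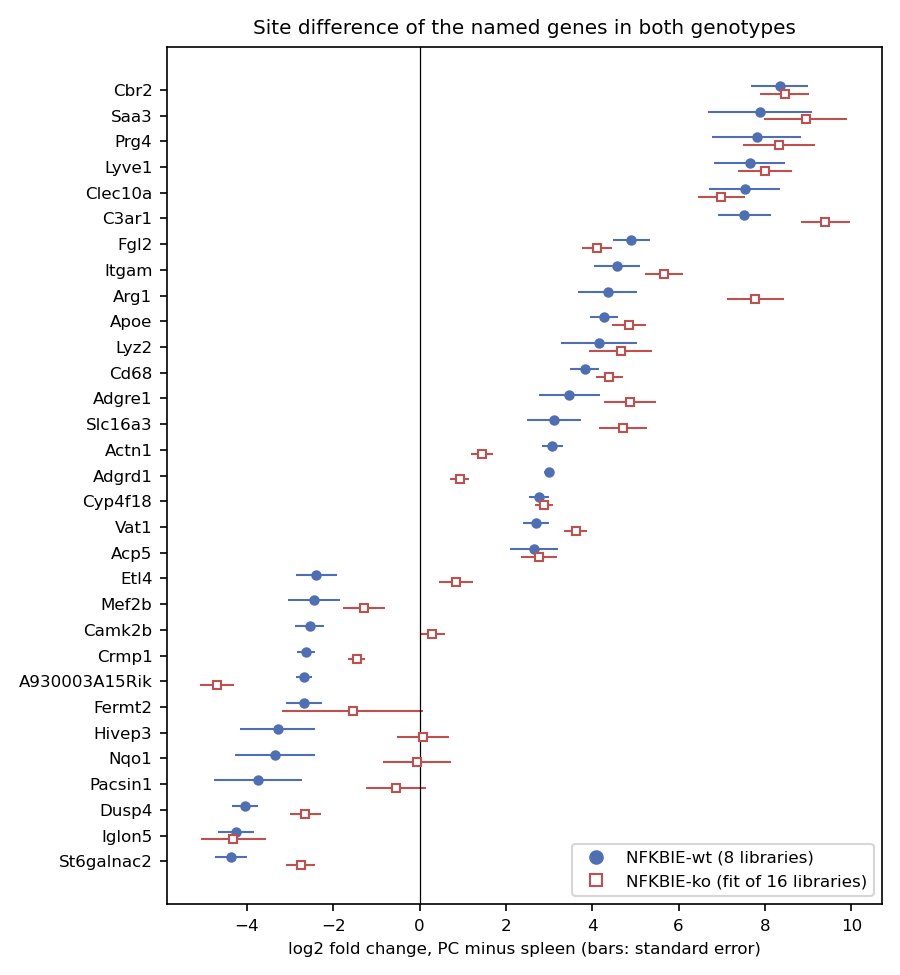
Log2 fold change of PC over spleen (x axis) for genes named by either selection (y axis), with filled circles for NFKBIE-wt, open squares for NFKBIE-ko and bars for the standard error. The macrophage genes at the top lie to the right in both genotypes, and Camk2b is at -2.55 in NFKBIE-wt and 0.30 in NFKBIE-ko.

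The test of the difference between genotypes found 804 of 13137 genes (6.12%) whose site difference was unequal, or 1360 of 13343 (10.2%) without NFKBIE-wt spleen 4. The genotypes had been propagated in separate mice before transfer, so genotype and propagating mouse cannot be told apart. The number of genes whose site difference differs between NFKBIE-wt and NFKBIE-ko depended on the fit, with 315 genes under a replicate block and 412 to 1483 when any 1 of the 16 libraries was left out (lowest without NFKBIE-ko PC 2, highest without NFKBIE-ko spleen 2). Adgrd1, tight in NFKBIE-wt, differed by 0.93 in NFKBIE-ko (interaction -2.07, adjusted p = 0.00219). Camk2b, spleen-high in NFKBIE-wt, differed by 0.30 in NFKBIE-ko (interaction 2.85, adjusted p = 0.00172). Cd22 had an interaction of 2.36 (adjusted p = 0.0109). Among interferon-stimulated genes, Usp18 differed by 2.05 in NFKBIE-wt and -0.20 in NFKBIE-ko (interaction -2.25, adjusted p = 0.00219). Arg1 was further apart in NFKBIE-ko, at 7.78 against 4.35 (interaction 3.43, adjusted p = 0.0134), and so was Krt8, at 6.44 against 3.31 (interaction 3.13, adjusted p = 0.00399). The monocyte receptor Cx3cr1, PC-high in NFKBIE-wt (3.58), differed by -0.28 in NFKBIE-ko (interaction -3.85, adjusted p = 0.0134). Vcam1, an adhesion molecule of red pulp macrophages, differed by -3.53 in NFKBIE-ko and -0.60 in NFKBIE-wt (interaction -2.92, adjusted p = 0.0117). Cdc6 was lower in the PC in both genotypes, at -2.06 and -1.43 (interaction -0.62, adjusted p = 0.0268).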

How the data were processed

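RNA was sequenced from unpurified PC and spleen cells and from cultures, with poly(A)-selected libraries. The authors deposited estimated counts per transcript, made with Salmon 1.8 on GRCm39. The submitters' notes also name CASAVA and DESeq2. Of 62492 transcripts, 62147 were matched to genes of GENCODE vM39, and the rest held 0.619% of counts. Each listed transcript was above 0 in at least 5 libraries, and 69.5% of values were not whole. Levels are CPM, counts per library scaled by TMM over all 22 libraries. Counts were summed over 17023 genes and rounded, filtered with filterByExpr, scaled by TMM and tested with edgeR 4.0.16 (quasi-likelihood, robust, R 4.3.3) with Benjamini-Hochberg adjustment. A gene was called at an adjusted p below 0.05 and an absolute log2 fold change above 1. The standard error is the log2 fold change divided by the square root of F. Differences between genotypes were tested as an interaction over the 16 in vivo libraries. DESeq2 1.42.0 was an alternative. The code was tested on simulated data. Figures were drawn with matplotlib 3.10.9.

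Genes were named where both fits called them without overlap at 5 CPM or more in the higher group, as the 6 protein-coding genes of largest fold change per direction and culture class, immunoglobulin and T-cell receptor segments left out, together with members of the lists. The second selection, at 20 CPM or more in culture with 8 genes per direction, was added after values were seen. The members, lists and tests were chosen with earlier results of these data known. Estimated counts can be split between near-identical paralogs such as globin, histone, Oas and C1q genes, whose values are uncertain to that extent. Promoters were taken from RefSeq for 9168 of the 12370 tested genes. A gene that the naming rule selected, and single values of some list members, are not reported here.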

Additional observations from a re-analysis of the deposited data

Results flagged for a closer look

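In 13 of 134 groups of 4 libraries, 1 library lay apart from the other 3 by Dixon's criterion, which chance alone passes in about 1 in 20 groups. Spleen 4 was the one apart for the cholesterol synthesis sum (3310 CPM), Pacsin1 (19.9 CPM), Nqo1 (19.9 CPM), Adgre1 (12.7 CPM), Hivep3 (56.8 CPM) and Lyve1 (0 CPM). Spleen 2 was apart for the red pulp and marginal zone macrophage sum (73.0 CPM), the ribosomal protein sum (49105 CPM) and Prg4 (0.448 CPM), and spleen 1 for the plasma cell sum (1814 CPM). In the PC group, PC 2 was apart for Itgam (76.9 CPM) and the retinoic acid sum (186 CPM), and PC 1 for Acp5 (709 CPM).

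The site difference of 8 named genes was unequal between the genotypes by the interaction test (NFKBIE-ko minus NFKBIE-wt, edgeR adjusted p). The difference in favour of the PC was larger in NFKBIE-ko for Arg1 (3.43, adjusted p = 0.0134) and smaller for Adgrd1 (-2.07, adjusted p = 0.00219) and Actn1 (-1.61, adjusted p = 0.0173). The difference in favour of the spleen was larger in NFKBIE-ko for A930003A15Rik (-2.02, adjusted p = 0.0281) and smaller for Crmp1 (1.18, adjusted p = 0.0246). Camk2b (2.85, adjusted p = 0.00172), Etl4 (3.24, adjusted p = 0.00493) and Hivep3 (3.37, adjusted p = 0.0363) were higher in the spleen in NFKBIE-wt, and their values in NFKBIE-ko were 0.30, 0.85 and 0.08.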

How the results depend on the processing

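The counts of genes higher in the PC and genes higher in the spleen, 980 and 397 as reported, were 987 and 394 with DESeq2 size factors in edgeR, 1054 and 463 without a filter, 825 and 346 with a stricter one, 1261 and 529 with DESeq2, 1172 and 566 in a fit of all 22 libraries, and 1763 and 1772 at an adjusted p below 0.05 with no limit on fold. Leaving out each library in turn gave 692 to 1265 PC calls and 323 to 558 spleen calls, and 633 and 244 of the calls were kept in every such fit. Without PC 2 and spleen 4, chosen after seeing the data, there were 1253 and 545. Deviations of same-numbered PC and spleen libraries from their group means correlated at 0.107, -0.221, 0.197 and -0.169. Without replicate 4 the values were -0.055, -0.046 and 0.218. With so few libraries, these values cannot show whether same-numbered libraries came from the same mouse. With the replicate block there were 761 and 310 calls. The 804 genes whose site difference differs between NFKBIE-wt and NFKBIE-ko were 1486 with DESeq2, 315 with the replicate block, and 412 to 1483 when 1 library was left out (412, 441 and 437 without NFKBIE-ko PC 2, 3 and 4, 463 without NFKBIE-ko spleen 3, 472 and 529 without NFKBIE-wt PC 2 and 4, 1483 without NFKBIE-ko spleen 2, 1360 without NFKBIE-wt spleen 4). The 12 genes higher in the spleen and low in culture were 34 with limits of 2 and 1 CPM, 22 over all 6 cultures and 18, an alternative added after seeing the data, over in vitro 1 and 2. Of 478 values of 32 named genes, 462 kept their call, 16 lost it and none turned. The log2 fold change of Pacsin1 and the log2 fold change of Nqo1 lost their calls under the replicate block (-2.60, adjusted p = 0.113, and -2.29, adjusted p = 0.0891) and without each PC library, Hivep3 without each PC library, and Mef2b without PC 1 or PC 3. Of 450 list medians, 15 had another sign than the reported one. Of these, 4 came from a median larger than the spread between replicates: endothelial and stromal genes without a filter (-0.18), with DESeq2 (-0.15) and with all 22 libraries (-0.18), and the NF-kB response without spleen 4 (range -0.20 to 0.043 over the fits that leave out 1 library). The other 11 were of dendritic cell, B-cell identity, MHC class II and plasma cell genes, with medians within that spread. The causes were not tested.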
